A study of Drosophila melanogaster with 3 samples.

Results

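The Cpr genes of Drosophila melanogaster are the cuticle protein genes whose symbols join Cpr to a number for their chromosome band. Every protein-coding gene of the Ensembl annotation of dm6 with such a symbol was taken, which gave 70 genes of 13945 on the 6 chromosome arms. They were set beside the other 13875 protein-coding genes. The choice went by gene symbols alone and used no measured value, though earlier results of these data were known when it was made.

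Binding was mapped by chromatin immunoprecipitation followed by sequencing (ChIP-seq). The flies carried a stable transgene of eyegone (eyg), a Pax-family transcription factor with a homeodomain, fused at its C-terminus to GFP. Chromatin of whole embryos of both sexes, 0 to 24 h old, was sheared by sonication into pieces of 200 to 800 bp, and the tagged protein was pulled down through its GFP, as the labels state. All 3 biological replicates belong to 1 group (eyg-GFP), and conditions could not be compared because there was no other. The labels state neither which promoter drove the transgene nor whether the endogenous eyg gene was intact. Whole embryos of all stages were pooled, so a protein bound in few cells and one bound weakly in many cannot be told apart.

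Cuticle proteins are secreted by the epidermis and pack around chitin fibres to form the exoskeleton, and they set how stiff or flexible a stretch of cuticle becomes. Most carry the Rebers-Riddiford consensus, a stretch that binds chitin, in an RR-1 form found largely in soft cuticle or an RR-2 form found largely in hard cuticle. The genes are small, often lie in tandem clusters, and are transcribed in pulses tied to the ecdysone hormone when a new cuticle is laid down, which in the embryo occurs late.

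The authors deposited calls for each replicate and for the pool of replicates, which hold background regions beside peaks, and an optimal list of 2537 peaks filtered for reproducibility. Calls of the replicate and pooled lists are named candidates here. The pooled list had 23721 candidates, and replicates 1, 2 and 3 had 30000, 30000 and 24609. A gene was said to carry a site when the summit of an optimal peak lay within 1 kb of one of its transcription start sites (TSSs). Signal is the authors' value for each call, on a scale that is not stated, and the files give no read counts, so depth is unknown. It ran from 108.3 to 2150.7 in the optimal list and from 37.5 in the pooled list. The eyg gene carried a site 203 bp upstream of its TSS with a signal of 177.0. That check bears on the tagged locus and not on the amount of tagged protein, which was not measured.

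Later paragraphs describe 2 regions of chromosome arm 3L and the core promoters of Cpr genes. These sequences are printed here, from the RefSeq copy of the Release 6 assembly (dm6). The first is the optimal peak at Cpr73D, shown on the plus strand from its start at 3L:16956757-16957024. Printing stopped at the edge of the first exon of the upstream Cpr73D transcript, whose inner edge lies 56 bp from the summit. The second is the whole optimal peak beyond the 3′ end of Cpr76Ba, at 3L:19516642-19516814 on the plus strand. Capitals mark the 11 bases centred on each summit.
Cpr73D peak: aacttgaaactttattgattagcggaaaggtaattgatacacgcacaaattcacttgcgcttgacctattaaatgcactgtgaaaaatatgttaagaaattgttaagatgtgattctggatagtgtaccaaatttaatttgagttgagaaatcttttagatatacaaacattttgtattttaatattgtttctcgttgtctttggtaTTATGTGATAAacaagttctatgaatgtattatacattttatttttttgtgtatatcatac
Cpr76Ba peak: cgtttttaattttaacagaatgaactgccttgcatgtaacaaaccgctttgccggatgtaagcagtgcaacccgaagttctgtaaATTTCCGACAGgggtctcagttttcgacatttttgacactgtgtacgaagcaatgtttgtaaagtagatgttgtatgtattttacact

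The core promoters that follow run from 45 bases before the outermost annotated TSS to 15 bases from it, on the strand of the gene. The first 8 are members discussed later with TATAAA, the word of the TATA box, between 45 and 20 bases before the TSS. Capitals mark TATAAA and TCAGT, a word of the initiator that spans the TSS in many fly promoters.
Cpr23B (2L, TSS 2838411, plus strand): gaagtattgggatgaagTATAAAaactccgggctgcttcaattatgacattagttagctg
Cpr31A (2L, TSS 10054213, plus strand): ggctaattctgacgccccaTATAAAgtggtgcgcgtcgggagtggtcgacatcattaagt
Cpr65Av (3L, TSS 6139974, minus strand): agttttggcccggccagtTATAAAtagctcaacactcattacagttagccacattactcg
Cpr65Ea (3L, TSS 7086608, minus strand): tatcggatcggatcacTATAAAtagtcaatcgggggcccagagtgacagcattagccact
Cpr65Ec (3L, TSS 7093204, plus strand): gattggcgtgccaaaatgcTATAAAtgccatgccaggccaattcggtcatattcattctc
Cpr66Cb (3L, TSS 8336672, plus strand): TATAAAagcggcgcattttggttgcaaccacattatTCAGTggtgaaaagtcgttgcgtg
Cpr76Ba (3L, TSS 19518332, minus strand): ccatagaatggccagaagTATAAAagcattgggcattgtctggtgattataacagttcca
Cpr78Cc (3L, TSS 21300580, plus strand): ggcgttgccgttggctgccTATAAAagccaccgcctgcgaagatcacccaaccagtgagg
The last 3 are members without TATAAA at that place, and Cpr73D among them is the member with a site. The printed promoters are examples and give no share. Many other members named later are not printed, for example Cpr72Eb and Cpr66D with the word, and Cpr65Au, Cpr76Bb and Cpr100A without it. Only the exact letters were counted, so a near spelling, as in Cpr67B, was not.
Cpr67B (3L, TSS 9404797, plus strand): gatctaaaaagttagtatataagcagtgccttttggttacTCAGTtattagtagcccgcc
Cpr73D (3L, TSS 16957689, minus strand): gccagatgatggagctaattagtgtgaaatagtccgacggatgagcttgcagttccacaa
Cpr78Ca (3L, TSS 21292800, minus strand): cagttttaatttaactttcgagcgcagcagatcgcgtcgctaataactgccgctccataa
A further pair, chosen after its values were seen, shows the closest copies in the family, whose core promoters run through the same letters shifted by 1 base.
Cpr65Ax1 (3L, TSS 6147987, minus strand): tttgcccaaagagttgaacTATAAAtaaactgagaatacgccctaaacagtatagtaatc
Cpr65Ax2 (3L, TSS 6150857, minus strand): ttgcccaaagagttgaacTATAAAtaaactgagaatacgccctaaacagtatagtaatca

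Sites were almost absent from Cpr genes. Cpr73D was the single member with one, so 1 of 70 Cpr genes (1.43%, 95% Wilson interval 0.253% to 7.66%) carried a site, against 2048 of 13875 other protein-coding genes (14.8%, 14.2% to 15.4%). Over all protein-coding genes the share was 14.7%. These intervals cover counting error only, and neighbouring members share a region, so the 70 genes are not 70 independent draws. No other Cpr gene had an optimal summit within 1 kb of an annotated TSS.

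Cpr genes also differed in structure from the genes they were set beside, in ways that bear on how a site is counted. Of the Cpr genes, 90% had 1 annotated TSS and 91.4% had no TSS of another gene within 1 kb, against 73.4% and 56.9% of the other genes. The median span was 1094 bp for Cpr genes and 2171 bp for the other genes, and the median number of exons was 2 for Cpr genes and 3 for the others. Among genes with 1 TSS and no other TSS within 1 kb, no Cpr gene of 59 had a site, and a count of 0 allows up to 5.08% by a limit of 3 counts. In the same class, 333 of 6051 other genes had one (5.50%, 4.96% to 6.11%). The limit lies just under that share, while the Wilson interval of the 59 Cpr genes (0% to 6.11%) takes it in. Whether the shares differ in this class was thus not resolved with 59 genes. Counting only genes with no other TSS within 1 kb, the shares were 0 of 64 Cpr genes (Wilson interval 0% to 5.66%) and 716 of 7896 other genes (9.07%, 8.45% to 9.72%). These intervals do not overlap, but this wider class also holds genes with several TSSs of their own. Of the 125 other genes that start within 10 kb of a Cpr start, 15 carried a site (12.0%, 7.41% to 18.9%).

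**Figure D1:**
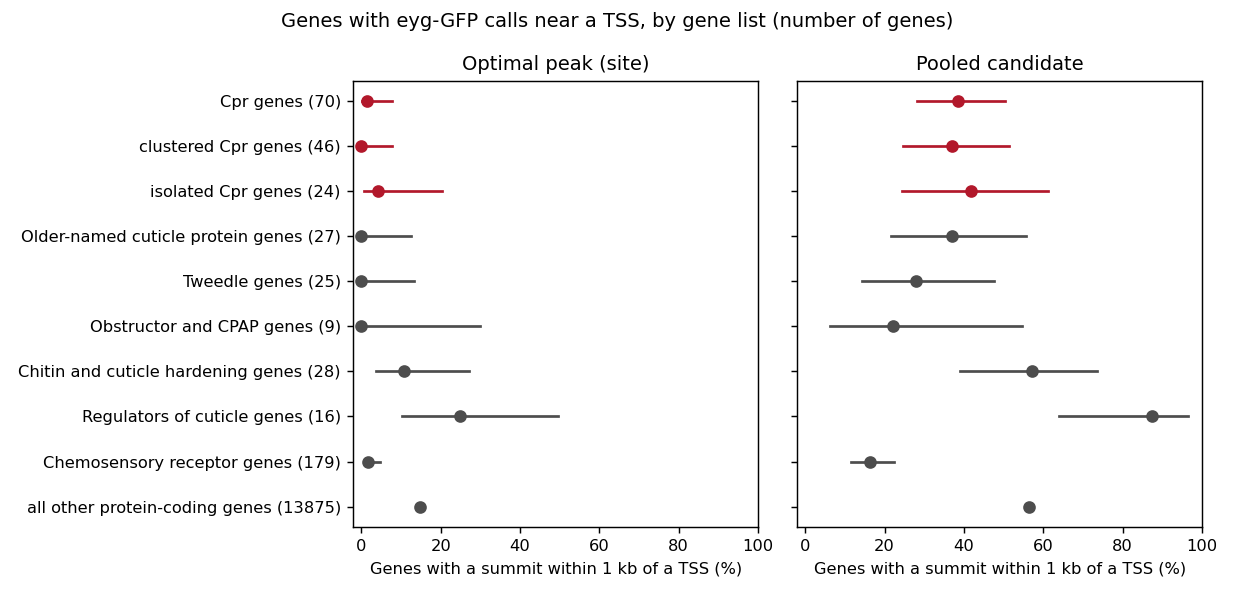
Share of genes with an optimal summit (left) or a pooled candidate (right) within 1 kb of a TSS, in percent, with 95% Wilson intervals as lines and the number of genes in parentheses. Cpr genes (red) stand at 1.43% for sites and 38.6% for pooled candidates, and all other protein-coding genes stand at 14.8% and 56.5%.

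The site at Cpr73D lay inside Cpr73D and also inside another gene that overlaps it. Cpr73D (FBgn0036680) spans 3L:16939100-16957689 on the minus strand and encodes a protein of 597 residues. The optimal peak at 3L:16956757-16957180 had its summit at 16956969, 720 bp downstream of the upstream Cpr73D TSS and 14020 bp from the downstream one. It thus lay within the span of Cpr73D, 56 bp past the first exon of the upstream transcript. The same summit fell in an intron of Ogdh (FBgn0010352), which encodes oxoglutarate dehydrogenase of the citric acid cycle, runs on the opposite strand and overlaps Cpr73D. The nearest Ogdh TSS was 470 bp away, closer than that of Cpr73D. ChIP-seq places a peak and names no target, so the peak cannot be assigned to either gene.

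The peak had a signal of 123.6 and ranked 2002 of 2537 in the optimal list, with a −log10 q-value of 2.90. Its signal was 20.1 in replicate 1, 48.0 in replicate 2 and 64.2 in replicate 3, and its ranks among all calls of those lists were 9814, 1800 and 1161. Replicate 1 was thus the weak one, with a −log10 q of 0.319, against 2.71 in replicate 2 and 2.89 in replicate 3. Requiring the summit to lie in one of the 2537 highest calls of replicates 2 and 3 kept the peak, and the same requirement on any pair that included replicate 1 removed it. Another pooled candidate lay 612 bp upstream of the same TSS (signal 56.8), again in an intron of Ogdh, and one more lay 274 bp downstream of the other Cpr73D TSS, in a coding exon (47.5). All the words of 32 bases in the printed stretch occur once on the 6 chromosome arms.

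The optimal peak closest to a Cpr gene without a site lay beyond the 3′ end of Cpr76Ba. It was narrow, at 173 bp, had a signal of 400.7 and ranked 161 of 2537. Its signal was 100.7, 131.2 and 155.1 in replicates 1, 2 and 3, with ranks of 199, 191 and 173, so all 3 replicates placed it high. Its summit lay between genes, 1600 bp from the Cpr76Ba TSS and 0.82 kb beyond the end of that gene, and no TSS of a protein-coding gene lay within 1 kb of it. Cpr76Ba was the protein-coding gene with the nearest TSS, followed by Cpr76Bb at 2917 bp and Cpr76Bc at 4213 bp. On the far side the nearest TSS was that of CG9452, 12862 bp away. By the 1 kb rule this peak belongs to no gene, and with a rule of 2 kb Cpr76Ba carried a site.

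Other optimal peaks close to members belonged by position to other genes. The peak closest to Cpr31A, 3230 bp away with a signal of 119.5, lay in an intron of Pen, an importin alpha gene, and 543 bp from its TSS. The peak 3968 bp from Cpr66Cb (155.3) lay in an intron of Prim1, which encodes a DNA primase subunit, and 145 bp from the TSS of CG7083. The peak 3980 bp from Cpr78Cc had the highest signal of these, 651.6 at rank 56, and lay 93 bp from the TSS of CG11309. One more optimal peak had a member as its nearest gene, at 13948 bp from Cpr92A in an intron of Dys, the dystrophin gene (217.7).

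The median Cpr gene lay farther from optimal peaks than the median of the other genes. The median distance from a member to the nearest optimal summit was 22178 bp (quartiles 13695 and 33722 bp, range 720 to 73397 bp), against 13459 bp for other genes (quartiles 3732 and 37038 bp). A distance above 10 kb was found for 57 of 70 Cpr genes (81.4%) and for 57.1% of other genes. Among genes with 1 TSS and no other TSS within 1 kb the median was 22384 bp for Cpr genes and 20465 bp for other genes. The medians differ less in that class, and the quartiles of Cpr genes (13780 and 33523 bp) lie inside those of the others (7649 and 49778 bp). Cpr57A was the member farthest from any optimal summit and Cpr73D the closest.

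**Figure D2:**
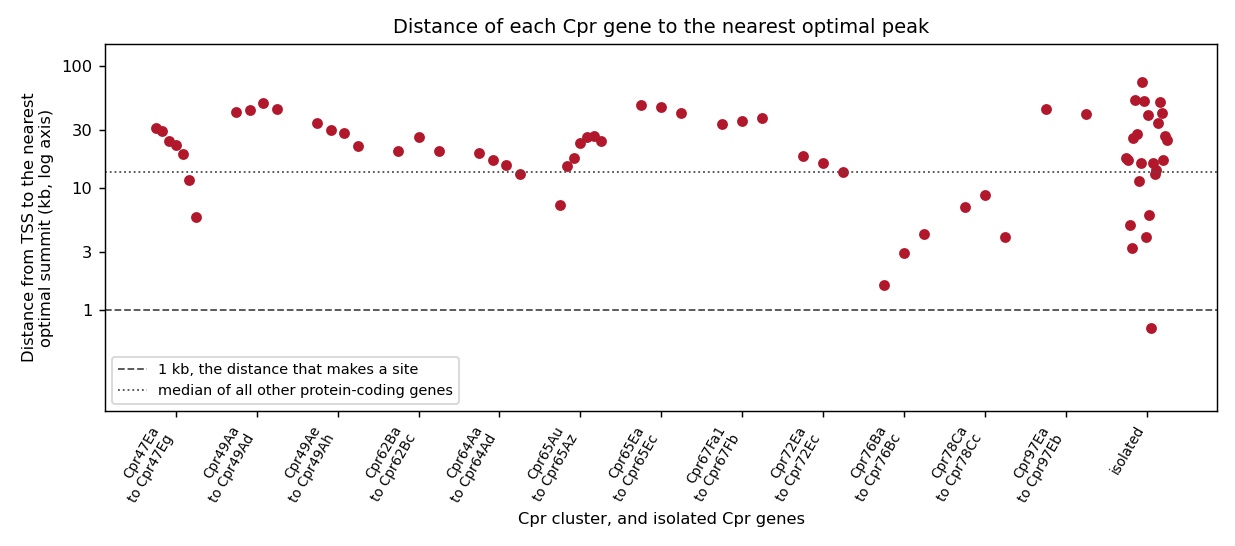
Distance from the nearest TSS of each Cpr gene to the nearest optimal summit, in kb on a log axis, for the 12 clusters and the 24 isolated genes. Points are genes, the dashed line is the 1 kb rule and the dotted line the median of all other protein-coding genes (13459 bp). Cpr73D alone is under the dashed line.

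Clusters were defined as runs of Cpr genes whose starts follow each other within 10 kb, which put 46 members into 12 clusters of 2 to 7 genes and left 24 isolated. No clustered Cpr gene had a site (0 of 46, which allows up to 6.52%), and 1 of 24 isolated Cpr genes had one (4.17%, 0.739% to 20.2%). These shares are not distinguishable at this number of genes. The spans of the 12 clusters add up to 155.9 kb and held 0 optimal summits, where the mean density over the arms, 1.89 per 100 kb, gives 2.95. The same spans held 30 pooled candidates, or 19.2 per 100 kb, against 17.7 per 100 kb over the arms. A count of 0 allows up to 3 summits in these spans, which takes in 2.95, so a shortage of optimal summits was not detectable in a length this small.

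Around the clusters, the stretch from the last optimal summit before a cluster to the first after it ran from 18.8 to 177.9 kb with a median of 100.7 kb. The mean spacing of optimal summits on the arms was 52.8 kb, and 10 of the 12 clusters lay in a longer stretch than that. A stretch found around a given place is longer on average than the mean spacing, so the comparison is a loose one. The shortest stretch was at Cpr78Ca to Cpr78Cc (18.8 kb), followed by Cpr76Ba to Cpr76Bc (44.0 kb). The longest were at Cpr97Ea to Cpr97Eb (177.9 kb) and at Cpr72Ea to Cpr72Ec (177.5 kb). The neighbouring clusters Cpr49Aa to Cpr49Ad and Cpr49Ae to Cpr49Ah lay in the same stretch of 100.7 kb.

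Pooled candidates were found at a smaller share of Cpr genes than of all other genes. A pooled candidate lay within 1 kb of a TSS of 27 of 70 Cpr genes (38.6%, 28.1% to 50.3%), against 7834 of 13875 other genes (56.5%, 55.6% to 57.3%) and 56.4% of all protein-coding genes. Among genes with 1 TSS and no other TSS within 1 kb the counts were 21 of 59 Cpr genes (35.6%, 24.6% to 48.3%) and 2277 of 6051 other genes (37.6%). In that class the interval of Cpr genes takes in the share of the others. Clustered Cpr genes had a pooled candidate in 17 of 46 cases (37.0%, 24.5% to 51.4%) and isolated ones in 10 of 24 (41.7%, 24.5% to 61.2%), with intervals that overlap.

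The candidates at Cpr genes were low in signal. The highest pooled candidate of a member had a median signal of 49.0 over the 27 members with one (quartiles 43.2 and 55.4, range 37.6 to 123.6), against 70.2 over 7834 other genes (quartiles 50.4 and 112.1, highest 2150.7). A single member, Cpr73D, reached the median of the other genes. A −log10 q of at least 2 was reached at 1 of these 27 Cpr genes (3.70%) and at 2252 of the 7834 other genes (28.7%). Clustered members had a median of 49.6 (range 37.9 to 67.9, n = 17) and isolated members one of 44.9 (37.6 to 123.6, n = 10). Members with no candidate enter none of these medians. Other genes more often had several TSSs or another gene's TSS within 1 kb, and the part of this in the signal was not tested. Over the 23 Cpr genes with a candidate and no other TSS within 1 kb the median was also 49.0. No such median was taken for other genes.

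**Figure D3:**
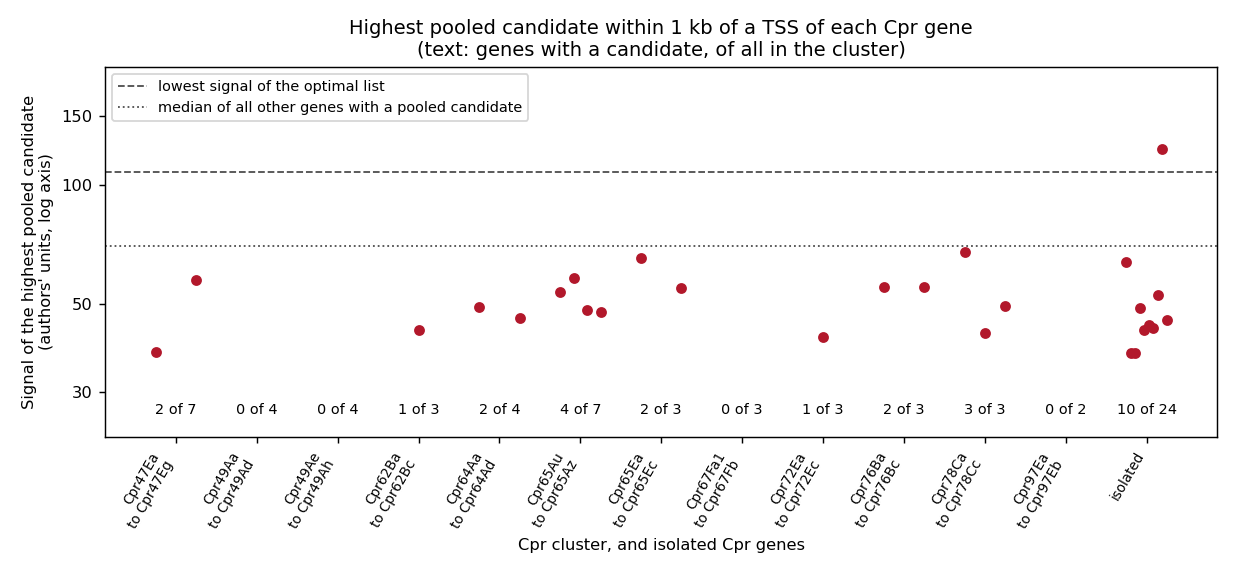
Signal of the highest pooled candidate within 1 kb of a TSS of each Cpr gene, in the authors' units on a log axis, by cluster and for isolated genes. Points are genes with a candidate, and the text under them counts these among all genes of the cluster. The dashed line is the lowest signal of the optimal list (108.3) and the dotted line the median of the other genes (70.2), and the point above both is Cpr73D.

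Below Cpr73D, the 10 Cpr genes with the highest pooled candidates had signals between 52.7 and 67.9, with 1 candidate shared by Cpr76Ba and Cpr76Bb. Cpr78Ca had the highest, 67.9 at 470 bp downstream of its TSS, with signals of 24.3 and 25.4 in replicates 1 and 2 and no call of replicate 3 over that summit. At Cpr65Ea the candidate of 65.6, 455 bp downstream of the TSS, had a call in every replicate (22.5, 30.2 and 19.8). Cpr23B followed with 63.8, at 743 bp upstream of its TSS in a coding exon of CG3119, and also had a call in every replicate (20.3, 21.7 and 20.5). None of these replicate calls ranked among the 2537 highest of its list.

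Next came Cpr65Av (58.1, 484 bp upstream) and Cpr47Eg (57.7, 429 bp downstream). Cpr76Ba and Cpr76Bb, which are transcribed away from each other, shared a candidate of 55.4 that lay between their starts, 432 and 885 bp upstream. Its replicate signals were 24.3, 13.8 and 14.98, so replicate 1 gave the strongest call there. The list ended with Cpr65Ec (55.1, 436 bp downstream), Cpr65Au (53.6, 651 bp upstream and also within 1 kb of Lcp65Ag2, a larval cuticle protein gene) and Cpr67B (52.7, 316 bp upstream). At Cpr67B the signal was 31.2 in replicate 1 and 14.1 in replicate 2, with no call of replicate 3.

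Candidates at Cpr genes often lay over coding sequence. Of the 30 pooled candidates within 1 kb of a Cpr TSS, 15 had their summit in a coding exon (50%, 33.2% to 66.9%), and 13 of these were exons of the Cpr gene itself. Of the others, 10 lay between genes, 3 in introns and 2 in untranslated regions. Near other TSSs only, 1827 of 10027 candidates lay in coding exons (18.2%), and among optimal peaks near a TSS 13 of 1607 did (0.809%). Coding bases made up 21.1% of the bases within 1 kb of Cpr TSSs and 30.4% of those within 1 kb of other TSSs. The coding candidates at Cpr genes had a median GC content of 57.7% in the 201 bases around the summit, against 35.8% for the other 15. Near other TSSs only, the order was the same, with 55.2% for coding candidates and 40.3% for the rest. GC content moved with the coding location here, and its part in the calls was not tested.

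Few Cpr genes had a call in every replicate. A candidate within 1 kb of a TSS was found in replicate 1 for 37 of 70 Cpr genes (52.9%), in replicate 2 for 28 (40.0%) and in replicate 3 for 23 (32.9%), where the shares over all protein-coding genes were 61%, 61.8% and 56.5%. The mean over replicates was 41.9% ± 10.1 for Cpr genes and 59.8% ± 2.86 for other genes (SD, n = 3). Cpr genes were the lower of the pair in 3 of 3 replicates. Among genes with 1 TSS and no other TSS within 1 kb, the order turned in replicate 1, with a call at 54.2% of 59 Cpr genes and 44.8% of 6051 other genes. The shares there were 37.3% of Cpr genes and 44.3% of other genes in replicate 2, and 32.2% of Cpr genes and 39.0% of other genes in replicate 3. By place, the mean was 41.3% ± 7.84 for clustered and 43.1% ± 16.8 for isolated Cpr genes (SD, n = 3), a difference smaller than the spread between replicates.

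A call in all 3 replicates was found at 10 of 70 Cpr genes (14.3%, 7.95% to 24.3%), against 43.0% of other genes and 42.8% of all protein-coding genes. These 10 were Cpr23B, Cpr51A, Cpr65Au, Cpr65Ea, Cpr72Eb, Cpr73D, Cpr76Ba, Cpr76Bb, Cpr78Ca and Cpr78Cc. Calls in 2 replicates were found at 19 Cpr genes (27.1%) and 16.9% of other genes, and calls in 1 replicate at 20 Cpr genes (28.6%) and 16.9% of other genes. No call in any replicate was found at 21 Cpr genes (30%, 20.5% to 41.5%), against 23.3% of other genes and 23.3% of all. Among genes with 1 TSS and no other TSS within 1 kb, no call in any replicate was found at 30.5% of Cpr genes and 36.3% of other genes, the reverse order. Calls in all 3 replicates were found there at 13.6% of Cpr genes (7.03% to 24.5%) and 23.2% of other genes (22.2% to 24.3%), and these intervals overlap. Replicate calls near a gene need not lie at the same base, and at several of these genes, Cpr51A, Cpr65Au, Cpr72Eb, Cpr78Ca and Cpr78Cc among them, the highest calls lay at different positions.

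**Figure D4:**
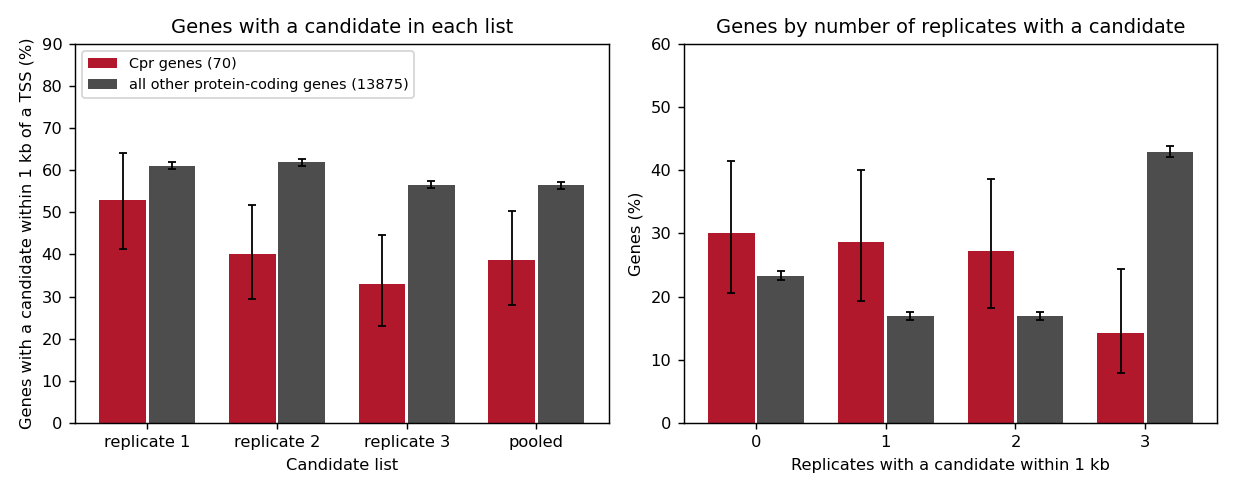
Left, share of Cpr genes (red) and of all other protein-coding genes (grey) with a candidate within 1 kb of a TSS in each list, in percent. Right, genes by the number of replicates with such a candidate, where 14.3% of Cpr genes and 43.0% of other genes have one in all 3. Bars are shares and lines 95% Wilson intervals.

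By cluster, 8 of the 12 had at least 1 member with a pooled candidate. All 3 genes of Cpr78Ca to Cpr78Cc had one (42.2 to 67.9). In Cpr65Au to Cpr65Az, whose span also holds 11 other genes, 4 of 7 did (47.6 to 58.1). In Cpr65Ea to Cpr65Ec, Cpr76Ba to Cpr76Bc and Cpr64Aa to Cpr64Ad, 2 members each did. Cpr62Ba to Cpr62Bc had 1 at Cpr62Ba (43.0), 62 bp upstream of a TSS, and Cpr72Ea to Cpr72Ec had 1 at Cpr72Eb (41.3).

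No member had a pooled candidate in Cpr49Aa to Cpr49Ad, Cpr49Ae to Cpr49Ah, Cpr67Fa1 to Cpr67Fb and Cpr97Ea to Cpr97Eb, and the spans of these 4 clusters held no pooled candidate at all. In the first 2 of them 1 gene each had a call in a single replicate (12.7 at Cpr49Aa and 15.8 at Cpr49Af). Both genes of the Cpr97E cluster had a call in 2 replicates, of 16 and 14.5 at Cpr97Ea and of 13.2 and 15.9 at Cpr97Eb. The span of Cpr47Ea to Cpr47Eg was the opposite case, since it held 10 pooled candidates, up to a signal of 89.8. Only Cpr47Ec (37.9) and Cpr47Eg (57.7) had one within 1 kb of a TSS there.

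Among the 24 isolated Cpr genes, 10 had a pooled candidate. After Cpr73D, Cpr23B and Cpr67B these were Cpr51A (49.0), Cpr100A (45.5), Cpr60D (44.3), Cpr66D (43.4), Cpr57A (43.1), Cpr35B (37.6) and Cpr30F (37.6). Cpr51A was the one of these 7 with a call in all 3 replicates (20.7, 19.6 and 22.3). A further 7 had calls in replicate lists alone, namely Cpr12A, Cpr30B, Cpr31A, Cpr50Cb, Cpr76Bd, Cpr78E and Cpr92A, with signals from 12.7 to 18.6. The last 7 had no call in any list, and these were Cpr5C, Cpr11A, Cpr11B, Cpr50Ca, Cpr56F, Cpr66Cb and Cpr92F.

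By chromosome arm, a pooled candidate was found at 3 of 5 Cpr genes on 2L, 5 of 21 on 2R, 18 of 35 on 3L, 1 of 5 on 3R and 0 of 4 on X. The shares of other genes on these arms were 54.4%, 57.0%, 58.1%, 57.0% and 54.9%. On 2R the share of Cpr genes was 23.8% (10.6% to 45.1%), and on 3L it was 51.4% (35.6% to 67.0%). The interval on 2R lies under the share of the other genes there, and the interval on 3L takes it in. On 2R, clusters of 7, 4 and 4 genes are among the 21, and those of 4 lie in the same stretch of 100.7 kb. The genes there are thus not 21 independent draws. The interval on 2R also takes in the 37.6% of other genes on all arms with 1 TSS and no other TSS within 1 kb. The arms of Cpr genes were not compared by a test.

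Many Cpr promoters held a TATA box word, and few promoters of other genes with a site did. TATAAA lay on the gene's strand between 45 and 20 bases before the TSS in 35 of 70 Cpr promoters (50%, 38.6% to 61.4%), as in the printed promoters of Cpr65Ea and Cpr76Ba, against 1034 of 13875 other promoters (7.45%). The share was 1.95% among other genes with a site and 8.40% among other genes without one. Clustered members had the word in 22 of 46 cases (47.8%) and isolated members in 13 of 24 (54.2%). Both windows that fix a word's position were set after the data were seen. The positions rest on the outermost annotated TSS of each gene, and a promoter counted as lacking the word may hold it just outside the window.

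In the 300 bases from 250 before the TSS to 50 after it, TATAAA on the gene's strand was in 48 of 70 Cpr promoters (68.6%) and in 31.9% of other promoters. TCAGT was in 60% of Cpr promoters and 51.5% of other promoters on either strand, and it lay across the TSS, from 5 bases before to 10 after, in 8.57% of Cpr promoters and 10.9% of others. Words of broadly active promoters were each found in at most 1 Cpr promoter. TATCGATA, the core of the DNA replication-related element, was in 1 of 70 Cpr promoters and in 9.40% of other promoters. GGTCACACT, the word bound by the factor M1BP, was in 0 of 70 Cpr promoters (up to 4.29%) and 6.08% of others, and CAGCTGTT, a word with an E-box, in 1 of 70 Cpr promoters and 7.64% of others. TAATTA, a core that many homeodomains bind, was in 14.3% of Cpr promoters and 20.5% of other promoters. The median GC content of these 300 bases was 45.5% in Cpr promoters and 38% in other promoters. What part GC content had in the word counts was not tested. GAGAG, bound by GAGA factor, was in 32.9% of Cpr promoters and 29.7% of others. All of these were searched on both strands where no strand is named, and no word contains another.

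Among the other genes, those with TATAAA at the TATA box position carried a site in 40 of 1034 cases (3.87%, 2.85% to 5.23%), and those without it in 2008 of 12841 (15.6%, 15.02% to 16.3%). Among other genes with 1 TSS and no other TSS within 1 kb the shares were 11 of 621 with the word (1.77%, 0.992% to 3.14%) and 322 of 5430 without it (5.93%, 5.33% to 6.59%). Cpr genes with the word had a site in 0 of 35 cases (up to 8.57%), and those without it in 1 of 35 (2.86%). Among Cpr genes the numbers are too small to compare. A pooled candidate was found at 12 of 35 Cpr genes with the word (34.3%) and 15 of 35 without it (42.9%).

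**Figure D5:**
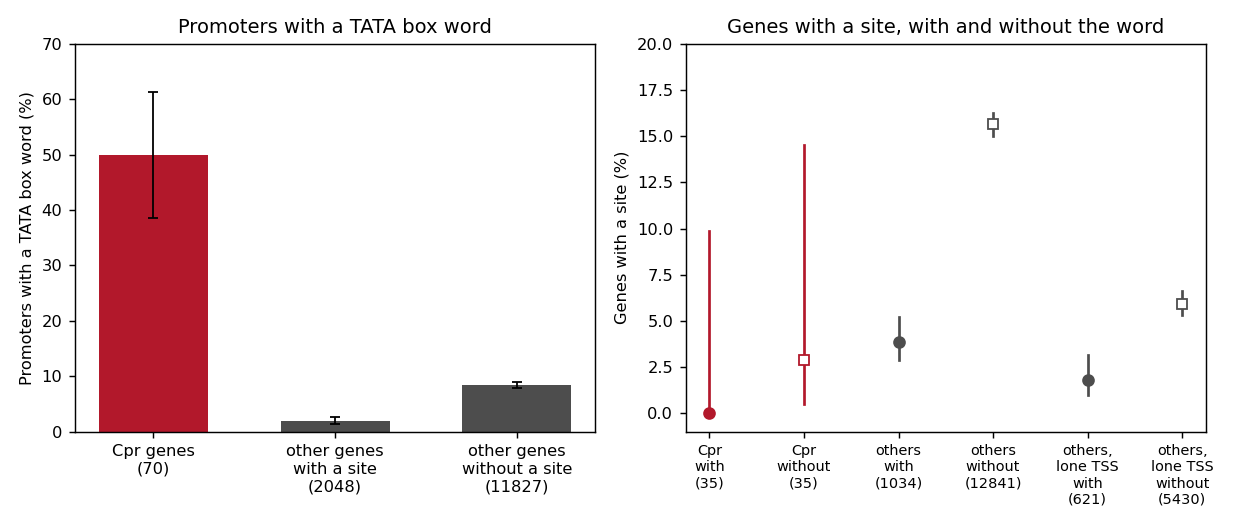
Left, share of promoters with a TATA box word between 45 and 20 bases before the TSS, in percent, in Cpr genes (red) and in other genes with and without a site (grey). Right, share of genes with a site, in percent, among genes with the word (filled circles) and without it (open squares), for Cpr genes, all other genes and other genes with 1 TSS and no other TSS within 1 kb (lone TSS). Lines are 95% Wilson intervals and numbers in parentheses are genes, and other genes with the word stand at 3.87% against 15.6% without it.

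The words were also looked for within 100 bp of the summits. Around the Cpr73D summit GAGAG was found and none of the other words, with both strands searched. That match is not within the printed stretch, which stops at the exon edge 56 bp from the summit, inside the window of 100 bp. Around the Cpr76Ba summit TCAGT was found and none of the others. GAGAG was present around 25.5% and TCAGT around 34.6% of the 2537 optimal summits, so neither sets these peaks apart. TAATTA was present around 13.7% of optimal summits and around neither of these. The absence of a word says only that those letters are not in the window.

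The pattern of the RR-1 type was found in 21 members, of which 6 had a pooled candidate (28.6%) and 0 a site (up to 14.3%). The RR-2 type was found in 13, of which 4 had a pooled candidate (30.8%) and 0 a site (up to 23.1%). Over all protein-coding genes, a pooled candidate was found at 56.4% and a site at 14.7%. The remaining 36, which matched neither pattern as spelled, had 17 with a pooled candidate (47.2%) and 1 site, at Cpr73D. A protein outside both patterns may still hold a diverged form of the consensus. The patterns were read from the translated longest coding sequence of each gene, and that of the RR-2 type was corrected after the data were seen.

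Sequence that recurs on the 6 chromosome arms touched few members, and the rest of the assembly was not searched for copies. Of the words of 32 bases within 1 kb of their TSSs, under 80% were unique in 2 Cpr genes, Cpr65Ax1 (35.4%) and Cpr65Ax2 (36.2%), whose proteins are identical and whose core promoters are printed above. Neither had a call in any list, and how the authors treated reads that fit both places is not given in the sources used here. Calls there are therefore uncertain. The pair Cpr67Fa1 and Cpr67Fa2, with 97.8% identical proteins, had 95.8% of words unique, and Cpr67Fa1 had a call in replicate 2 alone (13.2).

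The other lists of structural cuticle genes held 0 sites. Over all protein-coding genes, a site was found at 14.7% and a pooled candidate at 56.4%. Cuticle protein genes of the same family with older names (Lcp, Ccp84A, Acp65A, Edg, Pcp and resilin) had a site in 0 of 27 cases (up to 11.1%) and a pooled candidate in 10 of 27 (37.0%). Tweedle genes, a separate family of cuticle proteins, had a site in 0 of 25 cases (up to 12.0%) and a pooled candidate in 7 (28.0%). Obstructor and CPAP genes, which encode chitin-binding proteins, had a site in 0 of 9 cases (up to 33.3%) and a pooled candidate in 2 (22.2%). The Wilson intervals of these shares overlap those of the Cpr genes, and the limit for the obstructor and CPAP genes lies above the 14.7% of all genes. Each of the limits lies above the 5.50% of other genes with 1 TSS and no other TSS within 1 kb. These lists were not restricted to that class, so a shortage of sites beyond gene structure cannot be read from them.

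Among 28 genes of chitin synthesis and cuticle hardening, 3 carried a site (10.7%, 3.71% to 27.2%). These were mmy, which makes the UDP-N-acetylglucosamine that chitin is built from (129.1), Ddc, the dopa decarboxylase of cuticle tanning (124.5), and Cht7, a chitinase gene (110.6). Among 16 regulators of cuticle genes 4 did (25%, 10.2% to 49.5%), and these were the ecdysone-response genes Eip75B (415.7) and E23 (287.9) and the nuclear receptor genes usp (148.1) and Hr38 (118.6). Both intervals take in the 14.7% of all genes. Each of these 7 sites had the listed gene as the one with the nearest TSS. In another set of clustered families, the chemosensory receptors, 3 of 179 carried a site (1.68%, 0.572% to 4.81%) and 29 had a pooled candidate (16.2%, 11.5% to 22.3%). All 3 of these sites, at Ir60e (133.4), Gr64a (126.5) and Or88a (112.1), had another gene as the one with the nearest TSS, as the Cpr73D peak did.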

How the data were processed

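Sites of eyg-GFP were mapped in whole Drosophila embryos by ChIP-seq in 3 biological replicates of 1 group, as the labels give it. The authors deposited lists of calls for each replicate and for their pool, and an optimal list thresholded by the irreproducible discovery rate, per the labels. Each call in these deposited lists has a signal value of unstated scale, a −log10 q-value and a summit offset as the authors' caller wrote them. The score column held 0 throughout and the p-value column a placeholder, so neither was used. Which aligner and caller were used, and in which version, is not given in the sources used here. The control library and the dm3 lists were not used here. With no read counts in the files, depth is unknown.

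Lists on dm6 were joined to the Ensembl release 115 gene models of the same assembly by summit, within 1 kb of any TSS of a gene, in Python 3.11.15 with pandas 2.3.3, and the join was tested on simulated summits. Coordinates are 1-based. Shares carry 95% Wilson intervals and no test was made across members. Named genes are the member with a site and genes sharing its summit, the 10 members without a site with the highest pooled candidates, the 5 closest to an optimal summit, isolated members, the ends of clusters, up to 4 genes with a site in each other list, and eyg; other members are named where a count is spelled out, after their values were seen. Members, lists and rules were chosen with earlier results of these data known. Promoter windows were read from the genome and proteins translated from annotated coding sequences. The RR-1 type is Y, any residue, A, D or E, E, any residue, G, then F or Y. The RR-2 type as first listed was 1 residue short and matched 0 members, and its corrected form is YxADxxxGFNAxV, with x for any residue. The word positions, the class of genes with 1 TSS and no other TSS within 1 kb, the location of candidates and the uniqueness of sequence were also added after the data were seen. Alternatives were the window, the assignment of peaks to genes, stricter thresholds, the definition of clusters and leaving each replicate out of the mean or of the support asked of a summit.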

Additional observations from a re-analysis of the deposited data

How the results depend on the processing

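A total of 82 alternatives to 10 results were run, of which 39 stayed within the interval or spread of the main value and 43 moved outside it. The share of Cpr genes with a site or a pooled candidate stayed below that of other genes under each alternative that was run on both. With a window of 500 bp, sites were at 0% of Cpr genes, 0% of isolated Cpr genes and 12.6% of other genes. The pooled shares were then 21.4% of Cpr genes (21.7% clustered, 20.8% isolated) and 47.0% of other genes, and the replicate mean of Cpr genes was 22.4%. With 2 kb the replicate mean was 56.2%, and other genes had 18.4% sites and 67.4% pooled candidates. Cpr76Ba joined Cpr73D at 2 kb (2.86% of Cpr genes). Sites were at 13.9% of other genes by nearest TSS and at 24.0% by gene body with 2 kb around it, where Cpr genes had 2.86% (Cpr76Ba and Cpr92A) and 4.29% (Cpr31A, Cpr73D and Cpr76Ba). In the 50% of optimal peaks with the highest signal, sites were at 0% of Cpr genes, 0% of isolated Cpr genes and 8.21% of other genes. A −log10 q of at least 2 left pooled candidates at 1.43% of Cpr genes (0% clustered, 4.17% isolated) and 16.2% of other genes, and a replicate mean of 0.952%, the same mean as with the 2537 highest calls of each list. Among genes with 1 TSS and no other TSS within 1 kb, sites were at 0% of Cpr genes and 5.50% of other genes, and pooled candidates at 35.6% of Cpr genes and 37.6% of other genes.

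Asking for support from every replicate but 1 gave 0% to 1.43% of Cpr genes with a site (0% to 4.17% of isolated ones), against 10.2% to 11.0% of other genes. Cpr73D kept its site without replicate 1 and lost it without replicate 2 or without replicate 3. Pooled shares were then 12.9% to 22.9% of Cpr genes (13.0% to 21.7% clustered, 12.5% to 25% isolated), against 39.0% to 40.8% of other genes. These settings filtered the optimal and pooled lists, which the authors made from all the replicates, so the replicate left out still shaped them. A summit had to lie in a call of each replicate kept, and for sites in one of its 2537 highest calls. They are therefore stricter than the main rule and do not show what the remaining replicates alone would give. With 1 replicate list left out of it, the replicate mean of Cpr genes ran from 36.4% to 46.4%. No paired analysis was possible because the replicates form 1 group. With 70 members and 1 site, the number of genes limits what a share can show, and the unknown depth limits what a missing call can show.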

Other observations

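Distances to the nearest optimal summit varied widely between the cuticle lists. The median was 26475 bp for the 27 older-named cuticle protein genes, 24911 bp for the 25 Tweedle genes, 46075 bp for the 9 obstructor and CPAP genes and 29654 bp for the 28 genes of chitin synthesis and hardening, where it was 13459 bp for the protein-coding genes other than Cpr genes. The 16 regulators had a median of 3569 bp, and 31.2% of them lay more than 10 kb from an optimal summit, where the share was 81.4% of Cpr genes and 57.1% of other genes. A pooled candidate was found at 14 of the 16 regulators (87.5%, 64.0% to 96.5%), where the share over all protein-coding genes was 56.4%. These lists differ in gene length and in the number of start sites, and the part of these in the distances was not tested.

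The span of the Cpr47Ea to Cpr47Eg cluster had 37.5 pooled candidates per 100 kb, Cpr65Ea to Cpr65Ec had 38.3 and Cpr78Ca to Cpr78Cc had 43.0, against 17.7 over the arms, while 4 other clusters had none. These 3 were picked after their values were seen, and each rests on 3 to 10 candidates in a span of 7.84 to 26.7 kb.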
